A study of Mus musculus with 6 samples.

Results

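The genes described here are 10 ligands and receptors of vascular endothelial growth factor (VEGF) and angiopoietin signalling: Vegfa, Vegfb, Vegfc, Pgf, Kdr, Flt1, Flt4, Tek, Tie1 and Angpt2. They were followed through every array probe whose gene name equals one of these symbols, which gave 19 probes of 10 genes among 41174 probes of 27962 gene names on the array. All 19 passed the filter on dim probes, as did 39404 probes in all. Metanephroi (embryonic kidneys) of CD1 mice at E13.5 were cultured on filters and given either Scriptaid, an inhibitor of histone deacetylases (HDACs), or the control drug Nullscript, each at 2.0 µg/ml for 6 h. The 2 kidneys of an embryo received different drugs. RNA of both drugs was hybridised together on 2-colour Agilent arrays: 3 biological replicates, each on 2 arrays with the dyes exchanged, 6 arrays in all. How many embryos went into a replicate is not stated. No allele, transgene or Cre is named for these mice.

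VEGF ligands are secreted proteins that dimerise receptor tyrosine kinases on endothelial cells, and Kdr is the receptor through which VEGF-A drives most endothelial division, migration and survival. Flt1 binds VEGF-A tightly but signals weakly and, as a shed or soluble form, holds ligand away from Kdr, while Flt4 with its ligand VEGF-C is best known from lymphatic vessels. Angiopoietins act through Tek, with Tie1 as its partner, on vessel stability. In the growing kidney, nephron epithelium and podocytes are known as sources of VEGF-A, which draws endothelial cells into the forming glomerulus. Some endothelial cells are already present in a kidney rudiment of this age, and no blood flows through a rudiment on a filter.

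A value here is the log2 ratio of the Scriptaid-labelled over the Nullscript-labelled dye channel, averaged over the 2 arrays of a replicate. A positive ratio means a higher signal in the Scriptaid-labelled channel. A probe passed when limma's test of the 3 replicate ratios against 0 gave a Benjamini-Hochberg adjusted p under 0.05 over all 39404 probes. Levels of single channels are normalised intensities on the log2 scale, and they can be compared between the channels of a probe but not between probes. Where a gene has several probes, its brightest one stands for it in counts of genes.

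The labels need a caution before any direction is read. Genes that HDAC inhibitors are known to raise in other cells were lower in the Scriptaid-labelled channel, 8 of 8 of them, with the linker histone gene Hist1h1c at -1.72 ± 0.06 and the actin-severing gene Gsn at -1.04 ± 0.14 (log2 ratio, SD, n = 3). Of 6 genes that such drugs are known to lower, 5 were higher in that channel, with Ccnd1 at 1.90 ± 0.19 and Myc at 1.71 ± 0.28. Over all genes, 23.1% passed as lower and 22.2% as higher. Both lists were chosen with earlier results of these data known, so they are no independent check of the labels. Eya1, a regulator of nephron progenitors, stood at 1.64 ± 0.18. No source used here gives the study's own direction, and that of the dye fields of the labels may be opposite to it. The drug names are therefore those of the labels throughout. If the names were exchanged between the channels, every sign below would turn, and the sizes, errors and tests would stay as they are.

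Of the 10 genes, 6 were higher in the Scriptaid-labelled channel (Vegfb, Vegfc, Pgf, Kdr, Tie1 and Angpt2), 2 were lower (Flt1 and Flt4) and 2 did not pass by their brightest probe (Vegfa and Tek). The largest differences were those of Angpt2 and Vegfc, 2.45-fold and 2.44-fold, followed by Vegfb at 1.61-fold. All other differences that passed by a brightest probe were 1.25-fold or less. Passing is common on these arrays: 45.3% of 26770 genes passed by their brightest probe, 22.2% higher and 23.1% lower, so the count of 8 of 10 is read against that share. The median log2 ratio was 0.21 over the 10 genes and -0.0089 over all genes, and the median absolute log2 ratio was 0.24 over the 10 genes and 0.10 over all genes. At the level of probes, 9 of the 19 were higher, 3 were lower and 7 did not pass, against 45.2% of all probes passing in either direction, 23.5% higher and 21.8% lower. The 3 levels labelled Scriptaid and the 3 labelled Nullscript did not overlap for 8 of the 19 probes, against 32.9% of all probes. Without replicate 3, 4 of the 10 genes and 6 of the 19 probes passed, as did 11667 probes of the array in place of 17819.

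**Figure D1:**
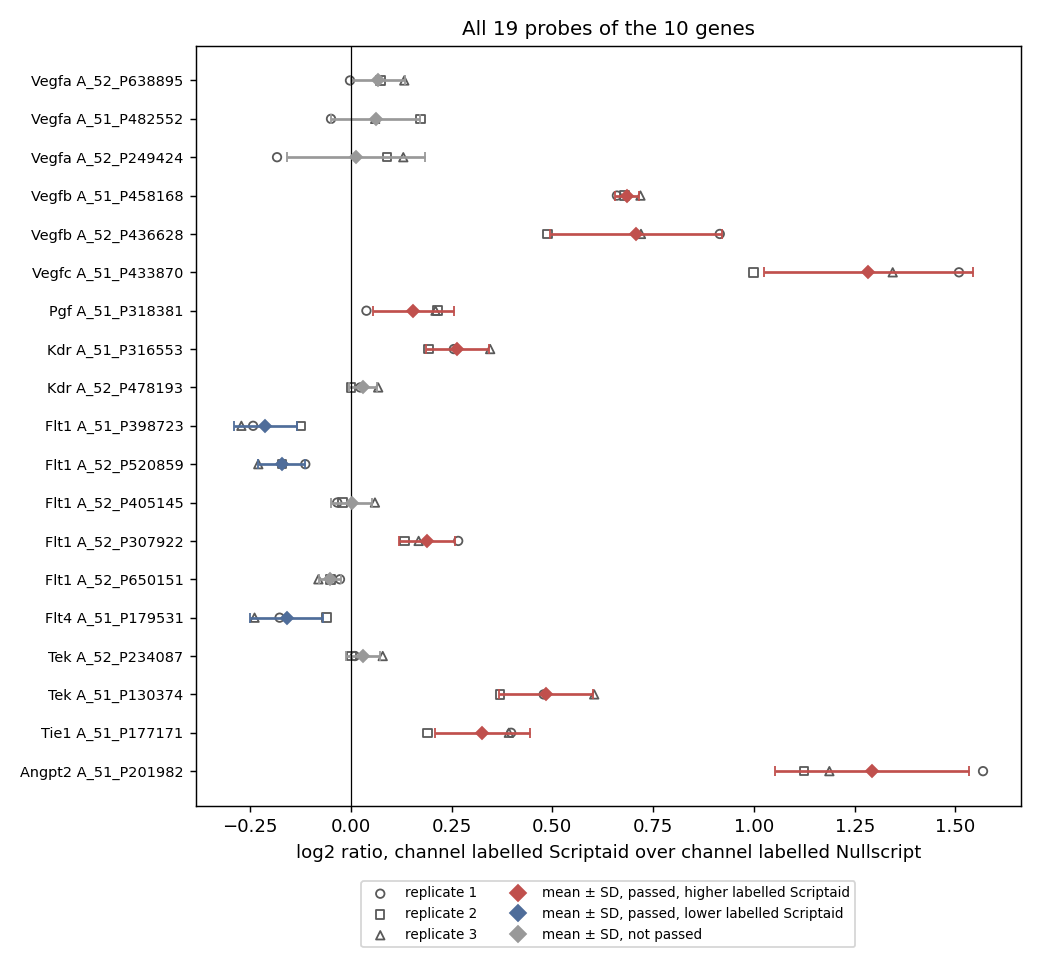
Log2 ratio of Scriptaid-labelled over Nullscript-labelled signal (horizontal axis) for the 19 probes of the 10 genes. Open symbols are the 3 replicates, and diamonds with bars are the mean ± SD. Angpt2 and Vegfc lie near 1.29, the 2 Vegfb probes at 0.69 and 0.71, and the 3 Vegfa probes between 0.01 and 0.07, while the probes of Flt1 fall on both sides of 0.

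The arrays could measure these genes well. Between 92.84% and 96.51% of spots were well above background in the Scriptaid-labelled channel, and between 91.46% and 95.62% in the Nullscript-labelled channel. All member probes but the second Kdr probe were well above background in both channels of all 6 arrays, and none was saturated. None of the 19 probes passed limma's test for a dye effect, against 3.82% of all probes, and the lowest adjusted p was 0.073. Replicates 1 and 2 lay on slide 1 and replicate 3 on slide 2, so a value without replicate 3 is the value of slide 1, and the ratio of replicate 3 is that of slide 2. Of kidney markers, 12 of 12 for nephron progenitors and 10 of 10 for the ureteric bud were well above background in both channels of all 6 arrays. So were 29 of 29 endothelial, 11 of 12 podocyte and 9 of 9 red blood cell markers. Since most spots were well above background, these counts do not tell tissues apart.

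The promoters of 3 ligands are shown because these ligands differ in how far the channels stood apart: Vegfc with the largest difference among the VEGF ligands, Vegfb with an intermediate one, and Vegfa with none that passed. The sequences are RefSeq's for the mouse build GRCm38.p6, from 250 bases before to 50 bases after the transcription start, on the strand of the gene, and capitals mark GC boxes (GGGCGG, on either strand).
Vegfc (chr8:54077282-54077581, plus strand): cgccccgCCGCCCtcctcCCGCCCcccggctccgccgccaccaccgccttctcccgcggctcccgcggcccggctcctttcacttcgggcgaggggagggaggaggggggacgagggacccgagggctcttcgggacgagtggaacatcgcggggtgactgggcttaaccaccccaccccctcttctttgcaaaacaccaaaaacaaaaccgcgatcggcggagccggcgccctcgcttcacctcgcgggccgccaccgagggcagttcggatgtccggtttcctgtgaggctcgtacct
Vegfb (chr19:6987602-6987901, minus strand): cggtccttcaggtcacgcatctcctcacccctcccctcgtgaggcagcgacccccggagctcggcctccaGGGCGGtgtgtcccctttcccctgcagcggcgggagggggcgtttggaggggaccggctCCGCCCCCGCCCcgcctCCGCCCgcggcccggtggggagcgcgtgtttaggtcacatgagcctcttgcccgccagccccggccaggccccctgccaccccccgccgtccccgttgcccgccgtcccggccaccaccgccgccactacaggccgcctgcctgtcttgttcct
Vegfa (chr17:46032328-46032627, minus strand): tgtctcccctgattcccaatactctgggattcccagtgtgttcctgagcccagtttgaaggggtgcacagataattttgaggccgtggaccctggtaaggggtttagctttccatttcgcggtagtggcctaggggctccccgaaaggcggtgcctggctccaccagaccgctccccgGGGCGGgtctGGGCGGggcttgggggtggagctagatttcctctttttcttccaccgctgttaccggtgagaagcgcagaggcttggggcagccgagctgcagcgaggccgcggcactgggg
The RefSeq table held 11 promoters for 9 of the 10 genes, and Angpt2 was not matched. GC boxes occurred in 8 of the 11, against 35.7% of all 32851 promoters in the table. Vegfb had 4 GC boxes, while Vegfc and the Vegfa promoter printed here had 2 each. The GC content was 70.3% for Vegfc, 75.3% for Vegfb and 62.0% for Vegfa, against a median of 52.7% over all promoters. Of the other motifs searched on both strands, the ETS core GGAA was in 11 of 11 (96.0% of all promoters), the TATA box TATAAA in 1 of 11, that of Flt1 (13.6% of all), and ACGTG, the core to which hypoxia-inducible factors bind, in 1 of 11 (19.6% of all). That single ACGTG lay in the promoter of a second Vegfa start (chr17:46025114-46025413, minus strand) and not in the printed one. These matches describe the letters in the window, and binding to them was not tested.

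Vegfa encodes the main VEGF of the kidney, and its 3 probes, all annotated to the same RefSeq transcript, showed no difference that passed. The brightest, A_52_P638895, read 11.07, 11.32 and 11.07 (replicates 1 to 3) in the Scriptaid-labelled channel, against 11.08, 11.24 and 10.93 in the Nullscript-labelled channel. The ranges of the channels overlapped, and the mean log2 ratio was 0.07 ± 0.07 (SD, n = 3, limma adjusted p = 0.22). The probe A_51_P482552 is spotted 10 times on each array, and it gave log2 ratios of -0.05, 0.17 and 0.06. Its mean was 0.06 ± 0.11 (limma adjusted p = 0.39), while the SD over its spots within an array was between 0.033 and 0.084, so the replicates differed by more than spots of the same array did. The third probe, A_52_P249424, gave -0.18, 0.09 and 0.13, with a mean of 0.01 ± 0.17 (limma adjusted p = 0.91). All 3 probes had their lowest ratio in replicate 1. The brightest probe read 0.20 ± 0.07 on the 3 arrays with Scriptaid in Cy5 and -0.06 ± 0.09 on the 3 with Scriptaid in Cy3, which is the largest dye difference among the 19 probes and one that did not pass.

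Vegfb encodes a VEGF that binds Flt1 and neuropilin-1 and not Kdr. Its brighter probe read 13.15, 13.31 and 13.23 in the Scriptaid-labelled channel, against 12.49, 12.63 and 12.51 in the Nullscript-labelled channel. Every level labelled Scriptaid was above every level labelled Nullscript, and the replicate ratios, 0.66, 0.68 and 0.72, were the closest together among the ligands, with a mean of 0.69 ± 0.03 (limma adjusted p = 0.00023). The second Vegfb probe read 11.27, 11.09 and 11.27 in the Scriptaid-labelled channel, against 10.36, 10.61 and 10.55 in the Nullscript-labelled channel. It gave 0.71 ± 0.21 (limma adjusted p = 0.0024), within the replicate spread of the first.

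Vegfc encodes the ligand of Flt4, which after cleavage can also activate Kdr. Its single probe read 11.66, 11.54 and 11.57 in the Scriptaid-labelled channel, against 10.15, 10.54 and 10.23 in the Nullscript-labelled channel. Every level labelled Scriptaid was above every level labelled Nullscript, with replicate ratios of 1.51, 1.00 and 1.34 and a mean of 1.28 ± 0.26 (limma adjusted p = 0.00072). The levels labelled Scriptaid lay closer together (SD 0.06) than those labelled Nullscript (SD 0.20). Pgf encodes placental growth factor, which binds Flt1. It read 9.58, 9.65 and 9.63 in the Scriptaid-labelled channel, against 9.55, 9.44 and 9.42 in the Nullscript-labelled channel. The groups did not overlap, but the mean ratio of 0.15 ± 0.10 lay at the edge of the threshold (limma adjusted p = 0.0497) and no longer passed without replicate 2 (0.12, adjusted p = 0.18) or without replicate 3 (0.13, adjusted p = 0.24). With the slide as a block the adjusted p was 0.095.

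**Figure D2:**
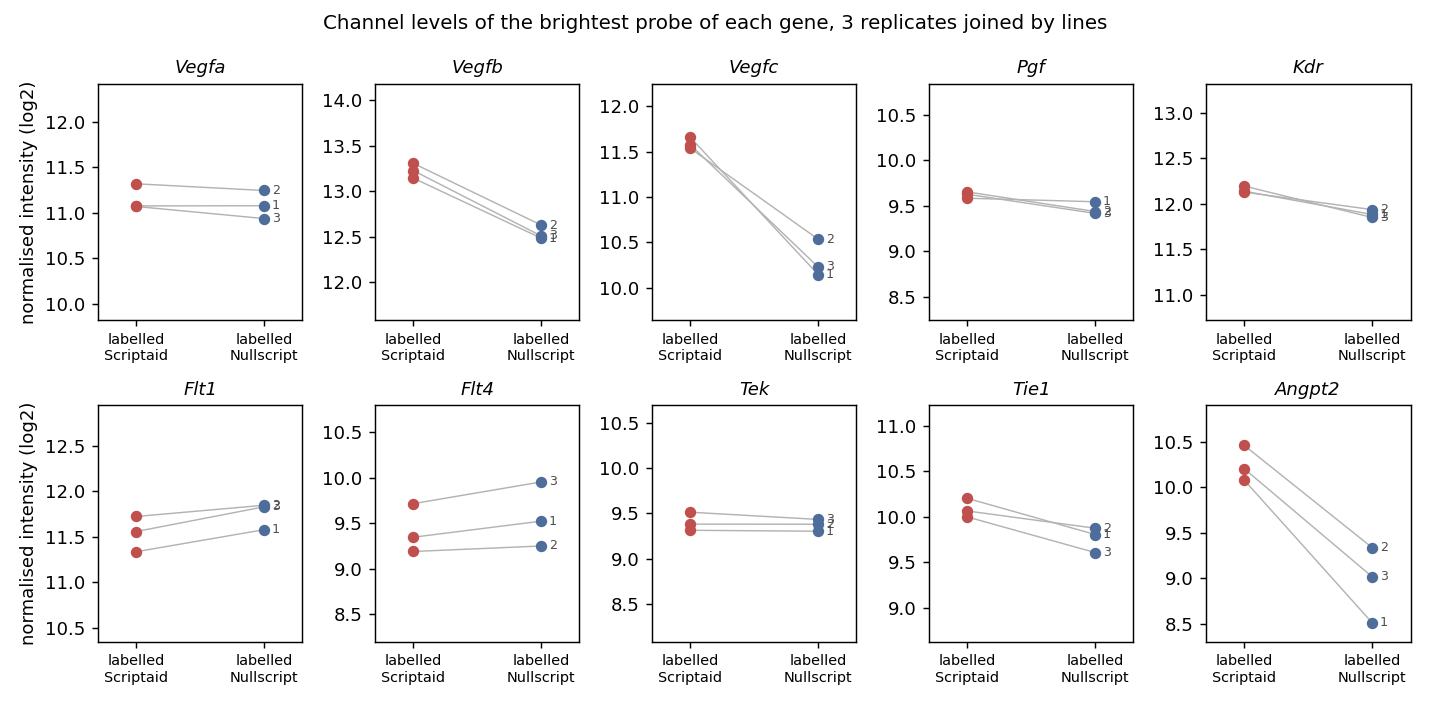
Normalised intensity (log2) of the brightest probe of each gene in the Scriptaid-labelled channel (left, red) and the Nullscript-labelled channel (right, blue), with a line joining the 2 channels of each of the 3 replicates, whose number stands at the right. Each panel spans the same number of log2 units, so slopes can be compared. The lines of Vegfc and Angpt2 are the steepest, those of Vegfa and Tek are nearly level, and those of Flt1 and Flt4 slope the other way.

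Kdr encodes the main signalling receptor of VEGF-A and is a defining gene of endothelial cells. The probe A_51_P316553, also spotted 10 times, read 12.14, 12.13 and 12.20 in the Scriptaid-labelled channel, against 11.88, 11.94 and 11.85 in the Nullscript-labelled channel. The groups did not overlap, and the mean ratio was 0.26 ± 0.08 (limma adjusted p = 0.0053), 1.20-fold. A second probe under the same name, A_52_P478193, is annotated to a different cDNA (AK054510). It was well above background in the Scriptaid-labelled channel of 4 of 6 arrays and in the Nullscript-labelled channel of 1 of 6. Its ratio of 0.03 ± 0.03 (limma adjusted p = 0.49) is therefore mostly that of a dim signal, and with median centring in place of loess it turned to -0.23 (limma adjusted p = 0.0080). The mean over both Kdr probes was 0.15 (limma adjusted p = 0.016).

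Flt1 encodes the receptor of VEGF-A, VEGF-B and placental growth factor, and its 5 probes went different ways. The brightest, A_51_P398723, read 11.34, 11.72 and 11.56 in the Scriptaid-labelled channel, against 11.58, 11.85 and 11.83 in the Nullscript-labelled channel. The ranges overlapped between replicates, but within each replicate the mean of the 2 arrays was lower in the Scriptaid-labelled channel. The 2 arrays of replicate 2 differed in sign, at 0.13 with Scriptaid in Cy3 and -0.37 with Scriptaid in Cy5. The mean ratio was -0.21 ± 0.08 (limma adjusted p = 0.011). A second probe on the same RefSeq transcript, A_52_P520859, gave -0.17 ± 0.06 (limma adjusted p = 0.015). The other 3 probes are annotated to separate cDNAs. One of them, A_52_P307922 (BC029674), was higher in the Scriptaid-labelled channel, with 0.27, 0.13 and 0.17 in the replicates and a mean of 0.19 ± 0.07 (limma adjusted p = 0.014). A_52_P405145 (AK005502) gave 0.0019 ± 0.05 and A_52_P650151 (AK084177) gave -0.05 ± 0.03, and neither passed. With median centring in place of loess A_52_P650151 was lower (-0.13, limma adjusted p = 0.041). Which transcript forms of Flt1 these probes read was not tested. Without replicate 3 none of the 3 passing Flt1 probes kept its call (adjusted p = 0.085 for A_51_P398723, 0.11 for A_52_P520859 and 0.076 for A_52_P307922), and A_52_P520859 also lost it without replicate 2 (adjusted p = 0.059). On the 3 arrays with Scriptaid in Cy3 alone, A_51_P398723 averaged -0.13 (limma adjusted p = 0.33), against -0.29 (0.0037) with Scriptaid in Cy5 alone. A_52_P520859 averaged -0.25 (limma adjusted p = 0.048) with Scriptaid in Cy3 alone and -0.09 (0.32) with Scriptaid in Cy5 alone. Over all arrays, the mean of the 5 Flt1 probes was -0.049 (adjusted p = 0.20).

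Flt4 encodes the receptor of VEGF-C. Its probe read 9.35, 9.19 and 9.71 in the Scriptaid-labelled channel, against 9.52, 9.25 and 9.95 in the Nullscript-labelled channel. The spread between replicates was wider than the difference between the channels. That difference, as a mean of 2 arrays, was below 0 in every replicate (-0.18, -0.06 and -0.24). It averaged -0.16 ± 0.09 (limma adjusted p = 0.038). The single arrays did not share a direction. With Scriptaid in Cy3 they read 0.08, -0.17 and -0.00017 in replicates 1 to 3, and with Scriptaid in Cy5 -0.43, 0.05 and -0.48. The 3 arrays with Scriptaid in Cy3 alone averaged -0.03 (limma adjusted p = 0.74). The call was lost without replicate 1 (-0.15, adjusted p = 0.10), without replicate 3 (-0.12, adjusted p = 0.20), with the slide as a block (-0.18, adjusted p = 0.056) and in the fit of 6 arrays with the replicate block and a dye term (adjusted p = 0.14). The ligand Vegfc and its receptor Flt4 thus had ratios of opposite sign, of which that of Vegfc was 1.17 or more under every alternative tried and that of Flt4 between -0.29 and -0.03.

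Tek encodes the receptor of the angiopoietins. The probe on its RefSeq transcript, A_51_P130374, read 8.42, 8.50 and 8.35 in the Scriptaid-labelled channel, against 7.94, 8.13 and 7.75 in the Nullscript-labelled channel. The groups did not overlap, and the mean ratio was 0.48 ± 0.12 (limma adjusted p = 0.0017), 1.40-fold. The brighter Tek probe, A_52_P234087 on the cDNA AK053336, read 9.32, 9.38 and 9.51 in the Scriptaid-labelled channel, against 9.31, 9.38 and 9.43 in the Nullscript-labelled channel, and its ratio of 0.03 ± 0.04 did not pass (limma adjusted p = 0.51). By the rule of the brightest probe Tek counts as not passed, whereas the mean over both probes gave 0.26 (limma adjusted p = 0.0040). Tie1 encodes the partner of Tek and has no angiopoietin of its own that binds it directly with high affinity. It read 10.20, 10.06 and 10.00 in the Scriptaid-labelled channel, against 9.80, 9.87 and 9.61 in the Nullscript-labelled channel. These levels did not overlap, with a mean ratio of 0.33 ± 0.12 (limma adjusted p = 0.0064), and the adjusted p was 0.052 without replicate 3.

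Angpt2 encodes the angiopoietin that endothelial cells themselves store and release, and that can oppose angiopoietin-1 at Tek. Its probe read 10.08, 10.46 and 10.20 in the Scriptaid-labelled channel, against 8.51, 9.34 and 9.02 in the Nullscript-labelled channel. The lowest level labelled Scriptaid, in replicate 1, was above the highest level labelled Nullscript, in replicate 2. The replicate ratios were 1.57, 1.12 and 1.19, with a mean of 1.29 ± 0.24 (limma adjusted p = 0.00059). The mean over the 3 arrays with Scriptaid in Cy5 was 1.30, against 1.28 over those with Scriptaid in Cy3.

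In the order of the 10 genes by the ratio of their brightest probes, Angpt2 and Vegfc could not be told apart, since their replicates overlapped. Vegfb lay below both and above Tie1 without overlap of the replicates. Tie1, Kdr, Pgf and Vegfa each overlapped with the next in the order, down to Tek. Flt4 and Flt1 overlapped with each other, and the highest replicate of Flt4, -0.06, was below the lowest of Tek, 0.0017.

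The ligand genes Figf, Angpt1 and Angpt4, together with angiopoietin-like genes, made up a list of 9 genes, all tested. The closing sections call the genes of this list other ligands for short. Of the 9 genes, 3 were higher in the Scriptaid-labelled channel and 2 were lower, against 22.2% and 23.1% of all genes. The median log2 ratio of the list was 0.04. Figf, which encodes VEGF-D, the second ligand of Flt4, was the highest at 1.01 ± 0.27 (limma adjusted p = 0.0016), with levels averaging 10.15 ± 0.07 in the Scriptaid-labelled channel and 9.14 ± 0.31 in the Nullscript-labelled channel (log2, SD, n = 3). Angpt1, the activating ligand of Tek, was higher at 0.45 ± 0.10 with a second probe at 0.42, and the angiopoietin-like gene Angptl4 was higher at 0.46 ± 0.07. Angpt4 was lower at -0.19 ± 0.10. The other gene below 0 that passed was Angptl6 at -0.15 ± 0.04. Without replicate 3 the number of passing genes was 3 in place of 5.

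Co-receptors and partners of the VEGF and TIE receptors were mostly higher. Of 15 tested genes, 11 were higher and 1 was lower, with a median of 0.36, against a share of 22.2% higher over all genes. The notch receptor Notch4, known from endothelial cells, stood at 1.64 ± 0.19 (limma adjusted p = 0.00025). Cdh5, the endothelial cadherin that binds Kdr at cell junctions, stood at 0.95 ± 0.20 with a second probe at 0.80. Nrp1, the neuropilin that presents VEGF-A to Kdr, stood at 0.94 ± 0.14 with 2 further probes between 0.47 and 0.60. The heparan sulphate proteoglycan gene Sdc2 stood at 0.77 ± 0.16 with a second probe at 0.92. Nrp2, the neuropilin of VEGF-C and Flt4, was the gene that was lower, at -0.20 ± 0.09 (limma adjusted p = 0.017). No gene of this list passed as lower without replicate 1, without replicate 3, with the slide as a block or with median centring, so Nrp2 lost its call there. The sign of Nrp1 was that of Kdr, and the sign of Nrp2 was that of Flt4. Whether the neuropilins and these receptors change together was not tested. Plxnd1 was not analysed here.

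Proteins that carry the signal inside the cell showed no common direction. Of 38 genes, 13 were higher and 16 were lower, against 22.2% and 23.1% of all genes, with a median of -0.03. The adaptor gene Grb10 stood at 0.78 ± 0.07 (2 further probes, 0.58 and 0.91) and the kinase gene Src at 0.76 ± 0.12 (a second probe at 0.10). The focal adhesion gene Pxn was lower at -0.94 ± 0.17, and its 2 further probes lay between -0.19 and -0.02. Of the 27 genes of this list with more than 1 probe, 7 had a probe of the opposite sign.

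Genes known to be induced by VEGF in cultured endothelial cells also went both ways, with 9 higher and 6 lower of 24. The shares over all genes were 22.2% and 23.1%, and the median of the list was 0.04. Esm1, which encodes the secreted proteoglycan endocan and marks sprouting endothelial cells, had the largest ratio of all genes named here, 2.22 ± 0.34 (limma adjusted p = 0.00037). Its levels averaged 12.06 ± 0.09 in the Scriptaid-labelled channel and 9.84 ± 0.34 in the Nullscript-labelled channel. The immediate early genes Egr1 and Egr2, which many other stimuli induce too, were lower at -1.45 ± 0.71 and -1.26 ± 0.96, and their ratios in replicate 1 (-2.22 and -2.32) lay far below those of replicate 2 (-0.80 and -0.48). The tissue factor gene F3 was lower at -0.67 ± 0.08 with a second probe at -0.62. Dusp5 was not analysed here.

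In a list drawn up for antagonists of VEGF and TIE signalling and inhibitors of vessel growth, 10 of 18 genes were higher and none was lower. Over all genes, 22.2% were higher and 23.1% were lower. The other 8 of the list did not pass, and its median was 0.14. Sema3a, a semaphorin that competes at neuropilin-1, was the highest at 1.35 ± 0.30, although its 2 further probes spread between 0.04 and 1.07. Vash2, a vasohibin gene, was counted in this list, but whether it inhibits vessel growth was not tested here. It stood at 0.87 ± 0.11 (a second probe at 0.24). Rasa1 and Spry2, which encode dampers of Ras signalling, stood at 0.66 ± 0.19 and 0.64 ± 0.19, and a second probe of each lay at -0.02 and -0.03. Without replicate 3 the number of passing genes was 6 in place of 10.

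**Figure D3:**
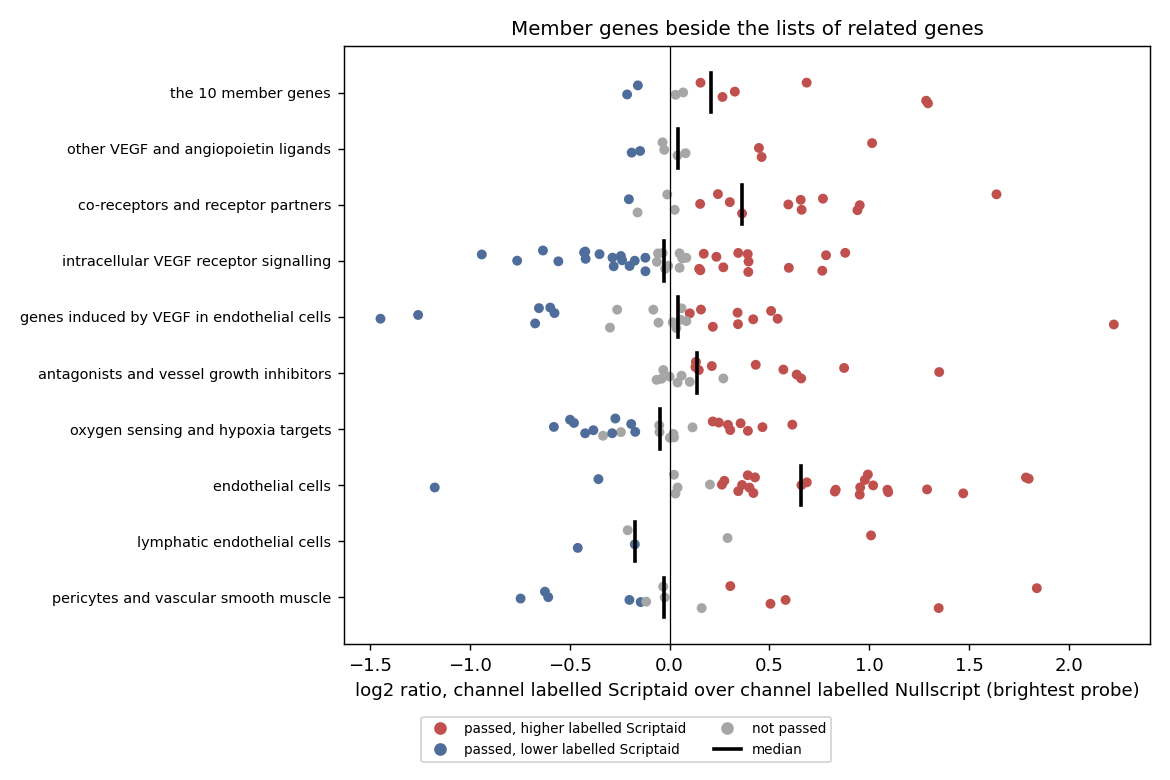
Log2 ratio of Scriptaid-labelled over Nullscript-labelled signal (horizontal axis) of the brightest probe of each gene in the 10 member genes, 6 lists of related genes and 3 lists of vessel cell markers. Points are genes, coloured by whether they passed and in which direction, and black bars are medians. Endothelial markers (median 0.66) and co-receptors (median 0.36) lie mostly to the right of 0, whereas intracellular signalling and hypoxia genes lie on both sides.

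Vegfa is a textbook target of hypoxia-inducible factors, so genes of oxygen sensing and hypoxia targets were set beside it. Of 25 tested genes, 8 were higher and 9 were lower, against 22.2% and 23.1% of all genes, with a median of -0.05. Hif1a, the oxygen-regulated subunit gene, was higher at 0.61 ± 0.23 (limma adjusted p = 0.0047). Among genes usually induced by hypoxia, P4ha2 was lower (-0.48 ± 0.16), as were Ero1l (-0.50 ± 0.09, a second probe at -0.54) and Ddit4 (-0.58 ± 0.42, saturated in the Nullscript-labelled channel on 1 array). Other genes of this kind were higher, namely Pfkfb3 (0.36 ± 0.07, further probes at 0.04 and 0.12) and Hk2 (0.25 ± 0.10), which act in glycolysis, the histone demethylase gene Kdm3a (0.29 ± 0.18, further probes at 0.03 and 0.31) and the oxygen sensor gene Egln3 (0.22 ± 0.05). In this list replicate 1 had the lowest of the 3 ratios in 19 of 25 genes, against 33.2% of all genes, and the median ratio was -0.18, 0.02 and -0.03 in replicates 1 to 3. Each of the 3 Vegfa probes was also lowest in replicate 1, but all 3 are annotated to the same transcript and none passed. Their highest ratio was in replicate 2 for A_51_P482552 and in replicate 3 for the others. With 3 replicates, a likeness between Vegfa and this list was not tested. Pgk1, Ldha and Ddit4 were saturated on some arrays and made up between 58.3% and 71.1% of the summed signal of the list. The summed signal of the other genes overlapped, at between 65250 and 97950 in the Scriptaid-labelled channel and between 72260 and 88570 in the Nullscript-labelled channel. Without replicate 3 the number of passing genes was 9 in place of 17, and the part of oxygen supply in the cultures was not tested. Vhl was not analysed here.

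**Figure D4:**
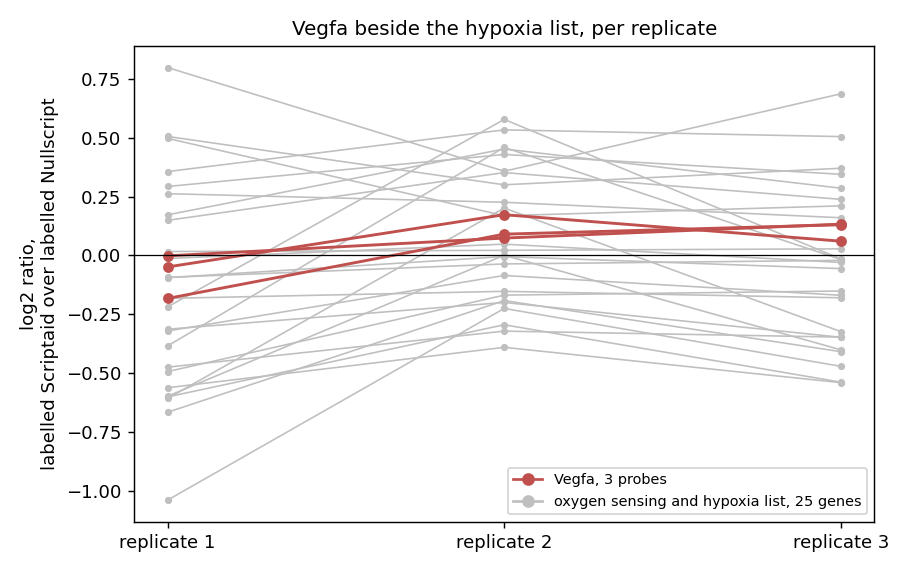
Log2 ratio of Scriptaid-labelled over Nullscript-labelled signal (vertical axis) in each of the 3 replicates for the 3 Vegfa probes (red) and the 25 genes of the hypoxia list (grey). Lines join the values of a gene and imply no order of replicates. Replicate 1 is the lowest in 19 of the 25 grey genes and in all 3 red probes, which are annotated to the same transcript. A likeness between red and grey was not tested.

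Kdr, Flt1, Flt4, Tek and Tie1 are expressed mainly by endothelial cells, and Angpt2 can be stored and released by them. Markers of endothelial cells were therefore measured beside these genes. Some of these markers, such as Cdh5, Eng and Nos3, are also in the lists above. Over all genes, 22.2% were higher and 23.1% were lower. Of 29 endothelial markers outside the 10 genes, 23 were higher in the Scriptaid-labelled channel and 2 were lower. The median log2 ratio of these markers was 0.66. Their summed signal was between 86870 and 89480 in the Scriptaid-labelled channel, and between 44790 and 56620 in the Nullscript-labelled channel. The receptor partner gene Ramp2 stood at 1.80 ± 0.19, the transcription factor gene Sox7 at 1.78 ± 0.40 (a second probe at 0.40), the adhesion gene Icam2 at 1.47 ± 0.29 and the ETS factor gene Fli1 at 1.29 ± 0.25 (a second probe at 1.00). The 2 that were lower were Egfl7 (-0.36 ± 0.06) and Etv2 (-1.17 ± 0.11). The ratios of Kdr (0.26), Tie1 (0.33) and Tek (0.03, a second probe at 0.48) were thus smaller than the median endothelial marker. That of Angpt2 (1.29) was larger. Flt4 and the brightest Flt1 probe had the opposite sign, while another Flt1 probe was higher at 0.19. In whole kidneys, more or fewer cells of a type and more or less RNA per cell cannot be told apart, and the part of endothelial cell number in the values of the receptors was not tested. Esam and Ecscr were not analysed here.

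Markers of the other cell types of a kidney were counted as well, beside shares of 22.2% higher and 23.1% lower over all genes. Of 5 lymphatic endothelial markers, which bear on Flt4, Nr2f2 was higher (1.01 ± 0.08, further probes at -0.09 and 0.92) and Prox1 (-0.46 ± 0.03) and Reln (-0.17 ± 0.06) were lower, while Lyve1 and Ccl21a were not analysed here. Nr2f2 is also expressed by venous endothelium and kidney stroma, and it carried most of the summed signal of that list. Of 14 markers of pericytes and vascular smooth muscle, 5 were higher and 5 were lower, with Kcnj8 at 1.84 ± 0.20 and Abcc9 at 1.35 ± 0.14, the paired subunits of a potassium channel, against Mcam at -0.75 ± 0.13 and Cnn1 at -0.62 ± 0.13. Of 12 podocyte markers, which bear on the source of Vegfa, 6 were higher and 2 were lower. One of those that were lower, Cdkn1c (-0.35 ± 0.06), was saturated on 3 arrays in each channel and made up between 48.4% and 57.8% of the summed signal of the list. The summed signal of the other podocyte markers overlapped, at between 48200 and 54910 in the Scriptaid-labelled channel and between 47500 and 52950 in the Nullscript-labelled channel. All 12 nephron progenitor markers and 9 of 10 stromal markers were higher. Ureteric bud markers were higher in 5 and lower in 1 of 10, macrophage markers higher in 5 and lower in 2 of 10, and red blood cell markers higher in 1 and lower in 4 of 9. Of the macrophage markers, 4 passed without replicate 2 and 3 without replicate 3, in place of 7. The part of these cells in the values of the 10 genes was not tested.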

How the data were processed

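RNA of the paired kidneys was measured on 6 arrays of 45018 spots, of which 43379 carry gene probes. Per the file headers, the authors scanned and quantified the arrays with Agilent Feature Extraction 9.1.3.1, and the deposited scanner files give mean and background intensity per spot and dye. The deposited value table holds log10 ratios that follow the dye fields of the labels, and it equals the scanner files' log10 ratios within 4.82e-06; its column medians lie between -0.00959 and -0.00136. Other parts of the authors' processing are not given in the sources used here. Samples were assigned to drugs and replicates by the dye fields, the titles and the replicate numbers of the labels, which hold 3 arrays of each dye orientation (the series text mentions 4 arrays, 2 of them swapped).

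Background was removed by normexp (offset 50) and dye bias by loess, both from limma 3.58.1 under R 4.3.3; control spots had weight 0 in loess, and outlier spots were dropped. Spots of a probe and then the 2 arrays of a replicate were averaged. A probe was tested if well above background in the same drug on at least 3 of 6 arrays. Whether the 3 replicate ratios differ from 0 was tested by lmFit and eBayes, with Benjamini-Hochberg adjustment over all tested probes. Channel levels come from loess followed by Aquantile normalisation. The dye effect was tested on 6 arrays with the replicate as a block (consensus correlation 0.119), and the fit was tested on simulated data. All probes of the 10 genes are named, together with up to 4 passing genes of each list with the largest ratio and the same sign in 3 replicates; Angptl6, Nrp2, Egfl7, Etv2, Pfkfb3, Hk2, Kdm3a, Egln3, Pgk1, Ldha and Cdkn1c were added after their values were seen, as were the summed signals without saturated genes. A gene that this rule takes is not reported here. The genes and the lists were chosen with earlier results of these data known. The replicate numbers pair the channels, since the labels give both drugs of a replicate as paired kidneys on the same arrays. Over probes, ratios correlated at 0.752 to 0.857 between the 2 arrays of a replicate, and between replicates at 0.871 to 0.943 (same dye orientation) or 0.733 to 0.825 (opposite). The labels call the replicates biological, but not whether embryos were pooled. The number of arrays limits the precision.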

Additional observations from a re-analysis of the deposited data

Results flagged for a closer look

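Among 62 probes of the 10 genes and of the named genes of the related, vessel cell and HDAC inhibitor lists, 1 gave different ratios in the 2 dye orientations by limma's test. The probe of the lymphatic and venous regulator Nr2f2 (A_52_P620399) had a log2 ratio of 1.22 on the 3 arrays with Scriptaid in Cy5 and of 0.80 on the 3 arrays with Scriptaid in Cy3 (adjusted p of the dye effect = 0.032), and it was higher in the Scriptaid-labelled channel in both. Among the genes that the naming rule takes from the lists of other kidney cells, 2 more probes gave such a difference. They were those of the nephron progenitor marker Crym (1.57 with Scriptaid in Cy5 and 1.07 with Scriptaid in Cy3, adjusted p of the dye effect = 0.043) and of Wt1 (1.15 and 0.79, adjusted p = 0.044), both higher in the Scriptaid-labelled channel in both orientations. No group had enough samples for a check of single outlying samples. None of the 19 probes of the 10 genes gave such a dye difference.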

How the results depend on the processing

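Vegfc, Angpt2, both Vegfb probes and the Tek probe A_51_P130374 kept direction and call under all alternatives run. The call was lost in 9 of 18 alternatives for Pgf (adjusted p from 0.011 to 0.28), 8 of 18 for Flt4 (to 0.90), 4 of 18 for Flt1 A_51_P398723 (to 0.38), 4 and 3 of 16 for Flt1 A_52_P520859 and A_52_P307922, 2 of 18 for Tie1 and 1 of 18 for Kdr A_51_P316553. Left-out replicates moved the passing member genes (8) to between 4 and 7, the passing member probes (12) to between 6 and 11 and the passing probes of the whole array (17819) to between 11667 and 16393; they gave 6 to 10 antagonists, 3 to 5 macrophage markers, 3 to 4 other ligands, 9 to 18 hypoxia genes and 0 to 1 member probes with a dye effect (1 without replicate 2, with the correlation of all 6 arrays). Each lowest count was without replicate 3, apart from the dye effect. Without pairing of the channels, 3 member genes, 5 member probes and 8334 probes of the array passed, with 6 antagonists, 9 VEGF-induced genes, 13 intracellular genes, 1 lymphatic, 3 macrophage, 5 podocyte and 1 red blood cell marker, 3 other ligands and 4 hypoxia genes; this fit leaves out the pairing of kidneys. Lymphatic markers passing were 5 (3 in the report) with the scanner software's processed signals, the deposited value table, median centring, and the replicate block with a dye term. Macrophage markers passing were 4 (7 in the report) with the processed signals, the value table and the slide as a block. The arrays with Scriptaid in Cy3 alone gave 5 member genes and 19 intracellular genes, and those with Scriptaid in Cy5 alone 3 other ligands. The fit with the replicate block ended the call of Flt4 (adjusted p = 0.14) and no other call of a member probe.

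Signs turned only in probes that had not passed. Vegfa A_52_P249424 gave -0.038 with the processed signals and the value table, -0.019 on the Cy3 arrays, and from -0.046 to 0.11 with replicates left out. Flt1 A_52_P405145 gave -0.035 with the processed signals and the value table, -0.0058 with offset 10, -0.013 on the Cy3 arrays and from -0.027 to 0.020 with replicates left out. Tek A_52_P234087 gave -0.0058 with the processed signals and the value table and -0.017 on the Cy3 arrays. Vegfa A_52_P638895 gave -0.064 on the Cy3 arrays, Vegfa A_51_P482552 -0.014 on the Cy5 arrays, and Kdr A_52_P478193 -0.23 with median centring (adjusted p = 0.0080). The causes were not tested. The brightest Vegfa probe passed, higher, with median centring (0.15, adjusted p = 0.038) and on the Cy5 arrays (0.20, adjusted p = 0.017), and Flt1 A_52_P650151, lower, with median centring (-0.13, adjusted p = 0.041). No scaling moved the median of all probes by over 0.1. Fits at gene level give no counts of probes.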
